A study of Homo sapiens with 7 samples.

Results

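A microRNA is cut from a hairpin-shaped precursor. Dicer leaves a short duplex whose 2 strands come from the 5′ side (the 5p arm) and the 3′ side (the 3p arm) of the hairpin. As background, one strand is usually loaded into an Argonaute protein and kept, while the other is degraded, so that the arms of a hairpin can differ widely in abundance although they are transcribed together. Each arm has its own seed, bases 2 to 8 from its 5′ end, which pairs with target messages, and therefore its own targets.

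Described here are 25 hairpins for which the card held separate assays of the 3p and the 5p arm, 50 arms in all. The card had 48 such hairpins among 377 human microRNA assays. The 23 left out belong to clusters and families named by stem number, and 27 further arm assays had no partner on the card. The rule works on assay names and uses no measured value, although it was written with earlier results of these data known.

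The arms were measured in 7 cell lines derived from MDA-MB-435-GFP, an established human tumor cell line that carries green fluorescent protein and is G418 resistant. It was long handled as a breast cancer line, and melanocytic genes are known to be expressed in it. The 3 L1-R2 lines (labelled MDA-MB-435-L1-GFP, Ol-like; lines 3T, 4T and 8T) came from lungs of mice injected with L1-R1 cells, themselves grown from lung macrometastases. The 4 L1Mic-R2 lines (labelled MDA-MB-435-L1Mic, Poly-like; lines 2T, 3T, 7T and 8T) came from lungs of mice injected with L1Mic-R1 cells, grown from the lung tissue free of macrometastases in the same animal. Both R1 populations thus share 1 mouse of origin, the hosts were athymic female mice injected by tail vein, their age was matched but is not given in the sources used here, and each R2 line stands for 1 mouse. Cells were selected with G418 before RNA was taken. One TaqMan card was run per line, so that biological and technical variation within a group were not separated. All lines of a group descend from the same R1 population. They are therefore not independent origins of a metastatic phenotype, and phenotype and R1 population cannot be told apart in the comparisons below.

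The raw value of a well is its threshold cycle (Ct), the number of PCR cycles needed to reach a set fluorescence. Each cycle is 1 step on a log2 scale, and an earlier cycle means more RNA. Values per line are given in the order 3T, 4T and 8T for L1-R2 and 2T, 3T, 7T and 8T for L1Mic-R2. A well listed as Undetermined has a Ct of 40, and an arm below 38 was called detected. Between 160 and 184 of the 377 human assays were detected per line. All 4 microRNAs listed as melanocytic markers were detected in at least 5 lines (miR-146a at Ct 18.32 to 20.10 and miR-204 at 25.79 to 26.92). MiR-211, also on that list, was Undetermined in L1Mic-R2 lines 2T and 8T. Of the epithelial markers, miR-200b (32.57 to 36.76) and miR-200c (30.10 to 35.46) were detected in all 7 lines and miR-205 was Undetermined in all. MiR-200a was detected in 4 lines, miR-203 in 2 and miR-141 in none. Of the markers of blood and endothelium, miR-126 (28.71 to 35.06) was detected in all 7 lines and miR-451 was Undetermined in all.

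The sequences below show the arms on which the results turn. They are RefSeq mature microRNAs (GRCh38.p14), written 5′ to 3′ in lower case with the seed in capitals. Of the 50 arms, 41 had a sequence under the same name. The first 11 belong to the 6 hairpins detected on both arms in all lines. The other 8 belong to miR-876, the hairpin of the arm that passed the test between groups, and to miR-330, miR-331 and miR-582, which each have an arm with an unadjusted p under 0.05 on normalized or raw Ct.
miR-28-3p: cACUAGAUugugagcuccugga
miR-140-3p: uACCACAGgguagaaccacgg
miR-140-5p: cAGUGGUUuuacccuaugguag
miR-193a-3p: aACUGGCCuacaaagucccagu
miR-193a-5p: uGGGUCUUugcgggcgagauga
miR-324-3p: cCCACUGCcccaggugcugcugg
miR-324-5p: cGCAUCCCcuagggcauuggug
miR-339-3p: uGAGCGCCucgacgacagagccg
miR-339-5p: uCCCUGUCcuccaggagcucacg
miR-455-3p: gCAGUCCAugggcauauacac
miR-455-5p: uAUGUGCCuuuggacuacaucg
miR-876-3p: uGGUGGUUuacaaaguaauuca
miR-876-5p: uGGAUUUCuuugugaaucacca
miR-330-3p: gCAAAGCAcacggccugcagaga
miR-330-5p: uCUCUGGGccugugucuuaggc
miR-331-3p: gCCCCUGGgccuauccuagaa
miR-331-5p: cUAGGUAUggucccagggaucc
miR-582-3p: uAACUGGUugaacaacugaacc
miR-582-5p: uUACAGUUguucaaccaguuacu

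In every pair printed above the arms have different seeds. Of the 377 human assays of the card, 124 had a RefSeq match by name. Among these, a member arm shared its seed with another assay in 1 case, CUCUGGG of miR-330-5p and miR-326. Seeds shared with the unmatched assays were not looked for, so that this is no count for the card. The arms of a hairpin lie close together on one strand. On GRCh38.p14, miR-140-5p occupies chr16:69933103-69933124 and miR-140-3p chr16:69933142-69933162, both on the plus strand within the span of WWP2. MiR-28-3p lies at chr3:188688834-188688855 on the plus strand, within LPP. MiR-324-5p (chr17:7223343-7223364) and miR-324-3p (chr17:7223308-7223330) are on the minus strand within the span of ACADVL. MiR-339-5p (chr7:1022990-1023012) and miR-339-3p (chr7:1022955-1022977) are on the minus strand within CHLSN, and miR-455-5p (chr9:114209449-114209470) and miR-455-3p (chr9:114209487-114209507) on the plus strand within COL27A1. MiR-193a-5p (chr17:31560016-31560037) and miR-193a-3p (chr17:31560050-31560071), on the plus strand, lie in the span of no protein-coding gene of the table used. MiR-876-5p (chr9:28863675-28863696) and miR-876-3p (chr9:28863636-28863657) are on the minus strand within LINGO2. MiR-330 lies within EML2 on chromosome 19, miR-582 within PDE4D on chromosome 5, and miR-331 in no such span on chromosome 12. These spans do not say whether an arm is exonic or intronic.

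Of the 25 hairpins, 6 had both arms detected in all 7 lines: miR-28, miR-140, miR-193a, miR-324, miR-339 and miR-455. In 5 hairpins one arm was detected in all lines and the other in none, and the detected arms were miR-296-5p, miR-330-3p, miR-342-3p, miR-491-5p and miR-576-3p. In 4 others one arm was detected in all lines and its partner in some of them. These were miR-139-5p (its 3p arm in 1 line), miR-331-3p (its 5p arm in 3 lines), miR-582-5p (its 3p arm in 4 lines) and miR-876-5p (its 3p arm in 1 line). At least 1 arm was thus detected in every line for 15 hairpins. Neither side of the hairpin was favored in these counts, since 16 of the 3p and 17 of the 5p arms were detected in at least 1 line.

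In the remaining 10 hairpins no arm was detected in more than 2 lines. Neither arm of miR-129, miR-548b, miR-556 or miR-615 was detected in any line. The last of these lies in the HOXC cluster and miR-129 is known from brain. Of the other 6, miR-499-5p, encoded within the muscle myosin gene MYH7B, was detected in L1-R2 line 4T alone (Ct 34.29), and miR-885-5p in L1Mic-R2 line 2T alone (37.32). MiR-486, an erythroid microRNA, gave a detected 5p arm in L1-R2 line 4T (37.14) and a detected 3p arm in L1Mic-R2 line 2T (35.86), never both in the same line. The primate-specific miR-548 family was likewise sporadic. MiR-548a-3p was detected in 1 line, miR-548c-5p in 2, and both arms of miR-548d in L1Mic-R2 line 8T only (36.95 for 3p and 37.47 for 5p). An arm that is Undetermined throughout may be absent or may have an assay that gives no product, and these cards cannot tell the cases apart.

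The number of detected arms did not separate the groups. It was 23, 26 and 22 of 50 in L1-R2, and 24, 24, 22 and 24 in L1Mic-R2. The L1-R2 mean was 23.7 ± 2.08 (SD, n = 3) and the L1Mic-R2 mean 23.5 ± 1 (SD, n = 4), which did not differ beyond the spread between lines (exact two-sided permutation test over 35 assignments, p = 1). The smallest p that 3 against 4 lines allow is 0.0286. Without L1-R2 line 4T the difference of -0.17 arms (L1Mic-R2 minus L1-R2) became 1, and without L1Mic-R2 line 7T it became 0.33, so that its sign rests on single lines. Both arms of a hairpin were detected for 7, 8 and 6 hairpins in the L1-R2 lines and for 7, 9, 7 and 8 in the L1Mic-R2 lines.

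**Figure D1:**
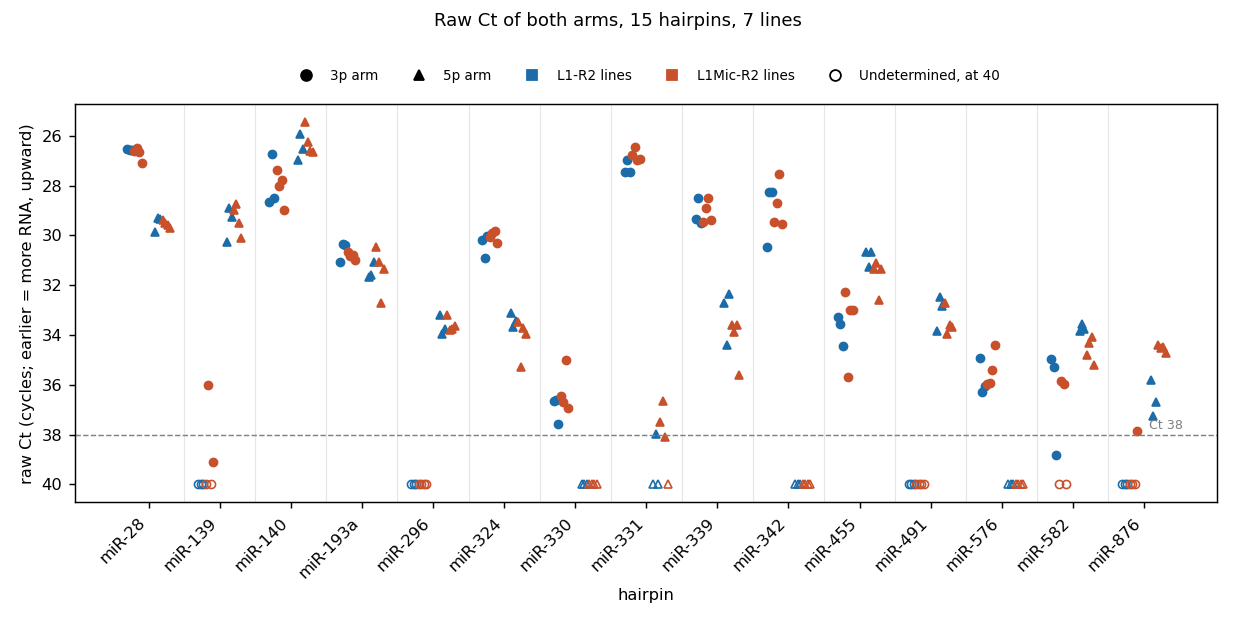
Raw Ct (cycles, earlier upward) of the 3p arm (circles) and the 5p arm (triangles) of the 15 hairpins with an arm below 38 in every line, 1 point per line, with L1-R2 in blue and L1Mic-R2 in orange. Open symbols at 40 are Undetermined wells and the dashed line is Ct 38. The order of the arms is the same in each of the 7 lines for 14 of the 15 hairpins, and miR-193a is the exception. In 5 of the 14 the partner is Undetermined in every line, so that the order could not change.

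The same arm came up earlier in all 7 lines for 14 of these 15 hairpins. The 3p arm was earlier for 7 of them (miR-28, miR-324, miR-330, miR-331, miR-339, miR-342 and miR-576) and the 5p arm for the other 7 (miR-139, miR-140, miR-296, miR-455, miR-491, miR-582 and miR-876). In 5 of the 14 the partner was Undetermined in every line, so that the order could not change. Where both arms were detected in all lines, the same arm was earlier throughout in 5 of 6 hairpins. The order of 2 assays within a card is a ratio of RNA only if both amplify alike, which was not measured. What can be compared between lines is therefore the arm difference, the Ct of the 3p arm minus that of the 5p arm in one card. The overall level of the card cancels in it. A constant offset between the 2 assays remains in the arm difference and cancels only when lines or groups are compared.

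MiR-28, which lies in the gene LPP, had the steadiest pair of arms. MiR-28-3p had a Ct of 26.54, 26.59 and 26.56 in L1-R2, and of 26.63, 26.51, 26.64 and 27.10 in L1Mic-R2. For miR-28-5p the Ct was 29.88, 29.31 and 29.34 in L1-R2 and 29.38, 29.50, 29.57 and 29.71 in L1Mic-R2. The 3p arm was thus 2.61 to 3.34 cycles earlier in every line, and the groups overlapped. By the SD of raw Ct over the 7 lines, miR-28-3p (0.20) ranked 3 and miR-28-5p (0.21) ranked 7 from the steadiest among the 135 assays detected in all lines. Their ranges of 0.59 and 0.57 cycles were narrower than those of the control RNAs U6 (0.80), RNU48 (2.16) and RNU44 (2.29). A single well per card was used for each control. This is a description of 7 cards, not a test.

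MiR-140, a microRNA known from cartilage, had the earliest 5p arm of the 25 hairpins. MiR-140-5p had a Ct of 26.97, 25.94 and 26.54 in L1-R2 and 25.46, 26.27, 26.62 and 26.64 in L1Mic-R2, the last set including the lowest Ct of any member arm. MiR-140-3p followed at 28.66, 26.73 and 28.48 in L1-R2 and 27.39, 28.03, 27.78 and 29.00 in L1Mic-R2. The arm difference was 1.69, 0.79 and 1.95 cycles in L1-R2 and 1.93, 1.76, 1.16 and 2.37 in L1Mic-R2, positive in every line. The arms moved together from card to card here, since the difference had a within-group SD of 0.55 where independent arms with the same SDs (0.86 and 0.54) would give 1.01.

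MiR-193a was the exception to a fixed order. The arm difference was -0.61, -1.23 and -0.69 cycles in L1-R2 and 0.17, -0.26, -1.92 and -0.36 in L1Mic-R2. The 3p arm was earlier in 6 lines and the 5p arm in L1Mic-R2 line 2T. MiR-193a-3p had a Ct of 31.06, 30.34 and 30.40 in L1-R2 and 30.65, 30.82, 30.80 and 30.99 in L1Mic-R2. For miR-193a-5p it was 31.66, 31.58 and 31.09 in L1-R2 and 30.48, 31.08, 32.71 and 31.34 in L1Mic-R2. The 3p arm was thus the steadier of the pair, and both the lowest and the highest Ct of the 5p arm were in L1Mic-R2 lines.

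MiR-324, whose 5p arm is known to target components of Hedgehog signaling, had a later 5p arm in every line. MiR-324-3p had a Ct of 30.20, 30.90 and 30.03 in L1-R2 and 30.06, 29.90, 29.83 and 30.30 in L1Mic-R2, and miR-324-5p of 33.10, 33.68 and 33.42 in L1-R2 and 33.48, 35.30, 33.73 and 33.98 in L1Mic-R2. The arm difference was -2.90, -2.78 and -3.39 cycles in L1-R2 and -3.42, -5.39, -3.90 and -3.68 in L1Mic-R2. The groups did not overlap, but their closest lines were at -3.39 and -3.42, and the largest gap was that of L1Mic-R2 line 3T.

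MiR-339 and miR-455 varied most between lines. For miR-339 the arm difference was -3.39, -5.92 and -2.83 cycles in L1-R2 and -4.14, -4.97, -5.09 and -6.26 in L1Mic-R2. MiR-339-3p had a Ct of 29.34, 28.49 and 29.52 in L1-R2 and 29.45, 28.91, 28.51 and 29.37 in L1Mic-R2. For miR-339-5p it was 32.73, 34.41 and 32.35 in L1-R2 and 33.59, 33.87, 33.60 and 35.62 in L1Mic-R2. The 5p arm thus covered a wider range than the 3p arm, and its highest Ct was in L1Mic-R2 line 8T. For miR-455, which lies in the collagen gene COL27A1 and is known from cartilage like miR-140, the arm difference was 2.58, 2.28 and 3.76 cycles in L1-R2 and 0.93, 4.58, 0.42 and 1.67 in L1Mic-R2. MiR-455-3p had a Ct of 33.27, 33.55 and 34.44 in L1-R2 and 32.27, 35.69, 33.00 and 33.01 in L1Mic-R2, and miR-455-5p of 30.69, 31.27 and 30.69 in L1-R2 and 31.34, 31.10, 32.58 and 31.34 in L1Mic-R2. Both extremes of the arm difference belonged to L1Mic-R2 lines, line 3T with the latest 3p arm and line 7T with the latest 5p arm.

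In each of the 6 hairpins the later arm had the larger within-group SD. It ran from 0.20 to 0.56 cycles for the earlier arms and from 0.23 to 1.23 for the later ones. The SD of the arm difference lay between 0.26 (miR-28) and 1.52 (miR-455), and was below the value for independent arms in 4 of 6 hairpins. Only miR-140 lay well below it (0.55 against 1.01). MiR-28 (0.26 against 0.31), miR-193a (0.74 against 0.81) and miR-324 (0.72 against 0.73) were close to it. The exceptions were miR-339 (1.24 against 1.14) and miR-455 (1.52 against 1.35). Assays of a card also share its overall level, and pairs of unrelated assays were not compared.

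**Figure D2:**
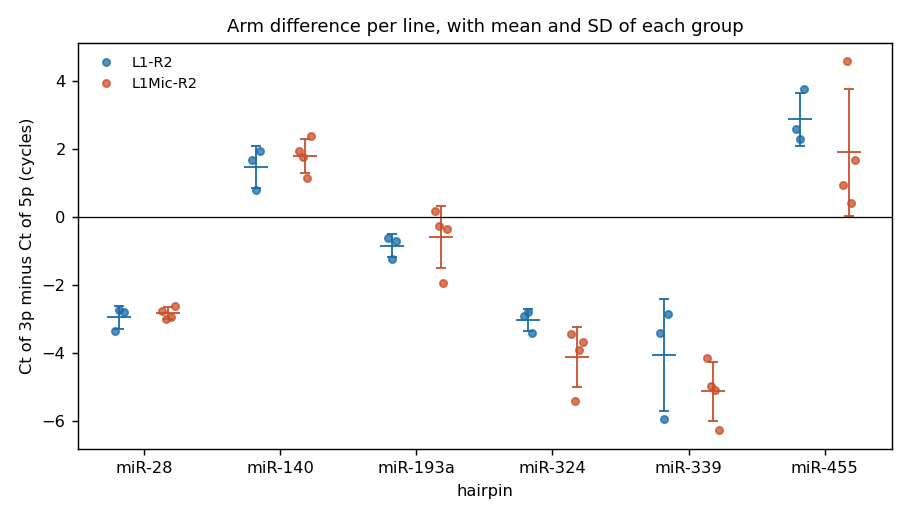
Arm difference (Ct of the 3p arm minus Ct of the 5p arm, in cycles) of the 6 hairpins detected on both arms in all 7 lines. Points are lines, the horizontal bars are the means and the whiskers 1 SD of 3 L1-R2 (blue) and 4 L1Mic-R2 lines (orange). Below 0 the 3p arm came up earlier. MiR-28 spans 2.61 to 3.34 cycles below 0, and miR-455 has the widest spread.

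The first comparison of the groups asks whether the balance between the arms differed between the L1-R2 and the L1Mic-R2 lines, each group descending from its own R1 population. No arm difference passed the test. It was fitted with limma over all 11 hairpins of the card with both arms detected in all lines, of which 6 are described here, and 0 of 11 passed (0% at an adjusted p under 0.05 with Benjamini-Hochberg, and 0 of 11 at an unadjusted p under 0.05). The adjusted p of the 6 ran from 0.601 to 0.856. The closest was miR-324, with an L1-R2 mean of -3.03 ± 0.32 cycles (SD, n = 3) and an L1Mic-R2 mean of -4.10 ± 0.88 (SD, n = 4). Its difference was -1.07 cycles (standard error 0.51, 95% interval -2.28 to 0.13, limma adjusted p = 0.601). On quantile normalized Ct it was -0.56 (limma unadjusted p = 0.31), and eBayes with trend and robust gave the -1.07 an unadjusted p of 0.0258 (adjusted p = 0.283). Of the 11 hairpins 9.09% had groups that did not overlap, which is miR-324 alone.

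The interval was narrowest for miR-28 and wider for every other hairpin. The difference of miR-28 was 0.13 cycles with a 95% interval from -0.48 to 0.73, and that of miR-140 was 0.33 with an interval from -0.64 to 1.29. For miR-193a it was 0.25 (-0.99 to 1.49). For miR-339 (-1.06, interval -3.05 to 0.93) and miR-455 (-0.97, interval -3.39 to 1.44) the intervals were wide. On quantile normalized Ct the difference of miR-339 was -0.56 and that of miR-455 -1.48. Both values moved with single lines, from -2.0 to -0.46 for miR-339 and from -1.87 to -0.48 for miR-455. Without L1-R2 line 4T the difference of miR-339 was -2.0 (limma unadjusted p = 0.0177, adjusted p = 0.195), and without L1Mic-R2 line 3T that of miR-455 was -1.87 (unadjusted p = 0.00957, adjusted p = 0.105). Without L1Mic-R2 line 3T the difference of miR-324 shrank to -0.64. The sign for miR-28, miR-140 and miR-193a also changed when 1 line was left out, at -0.07 without L1-R2 line 3T, -0.01 without L1-R2 line 4T and -0.0028 without L1Mic-R2 line 2T.

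In the 9 hairpins with only one arm detected in all lines, the gap to the partner was mostly a lower bound. The reason is that the partner was Undetermined and stood at 40. Bounds of different hairpins depend on the Ct of the detected arm and were not ranked. MiR-342-3p, from the gene EVL, had a Ct of 30.45, 28.24 and 28.26 in L1-R2 and 29.46, 28.69, 27.55 and 29.55 in L1Mic-R2, while miR-342-5p was Undetermined in all 7 lines, a gap of at least 9.55 to 12.45 cycles. MiR-331-3p had a Ct of 26.45 to 27.48, and its 5p arm was read in 4 lines. These were L1-R2 line 4T (37.97) and L1Mic-R2 lines 2T (37.49), 3T (36.65) and 7T (38.08). The gap was 10.21 to 11.11 cycles in these lines and at least 12.52 to 13.05 in the 3 Undetermined lines.

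MiR-139-5p, from the gene PDE2A, had a Ct of 28.74 to 30.26. Its 3p arm was read at 36.01 in L1Mic-R2 line 3T and 39.08 in line 8T, for gaps of 7.27 and 8.96 cycles. In the other 5 lines it was Undetermined, and the gap was at least 9.74 to 11.09 cycles. MiR-296-5p had a Ct of 33.18, 33.94 and 33.76 in L1-R2 and 33.21, 33.80, 33.75 and 33.63 in L1Mic-R2. MiR-491-5p, from the gene FOCAD, had a Ct of 33.85, 32.49 and 32.83 in L1-R2 and 32.70, 33.96, 33.61 and 33.68 in L1Mic-R2. Both had an Undetermined 3p partner throughout, with a gap of at least 6.06 to 6.82 cycles for miR-296 and of at least 6.04 to 7.51 for miR-491. MiR-576-3p, from the gene SEC24B, was later still, at 34.93, 36.28 and 36.05 in L1-R2 and 35.97, 35.93, 35.42 and 34.40 in L1Mic-R2. In all of these arms the groups overlapped. The bounds for miR-576 (3.72 to 5.60), miR-876 (2.76 to 5.58) and miR-330 (2.44 to 4.98) were low because the detected arm was itself late.

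MiR-582 stood between these classes. MiR-582-5p had a Ct of 33.84, 33.57 and 33.78 in L1-R2 and 34.81, 34.31, 34.09 and 35.19 in L1Mic-R2. MiR-582-3p had a Ct of 34.95, 35.30 and 38.82 in L1-R2. In L1Mic-R2 it was read at 35.83 in line 3T and 35.95 in line 7T, and lines 2T and 8T were Undetermined. The gap was 1.10 cycles in L1-R2 line 3T, 5.04 in L1-R2 line 8T, and at least 5.19 in L1Mic-R2 line 2T, where the 3p arm was Undetermined. A 3p arm that was not detected thus occurred in both groups, read at 38.82 in L1-R2 line 8T and Undetermined in L1Mic-R2 lines 2T and 8T. These are single wells at the limit of the assay, and whether the arm was lost was not tested.

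The ends of the duplex were set against the order of the arms, since the strand with the less stable 5′ end, or one that begins with U or A, is known to be favored in loading. Of the 14 hairpins with a fixed order, 13 had both sequences. The earlier arm began with U in 6 of 13 and the later arm in 6 of 13. With U or A the counts were 9 and 8. Of 2370 human mature sequences in RefSeq, 36.8% begin with U. The first 4 bases of the earlier arm held fewer G or C than those of the later arm in 4 hairpins, the same number in 7 and more in 2. MiR-455 (1 against 3) and miR-331 (4 against 2) had the largest differences, in opposite directions. These counts are a description only. The order of the arms compares assays of unmeasured efficiency, and in 5 of the 13 hairpins the later arm was Undetermined in every line, so that nothing about strand loading follows from them.

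The second comparison asks which single arms differed in level between the groups. For it Ct was quantile normalized across the 7 cards as in the methods of the study, and 40 minus Ct was fitted with limma over the 181 human assays detected in at least 3 lines, so that a positive difference stands for more RNA in L1Mic-R2. Of the 50 arms 23 entered, 11 of them 3p and 12 of them 5p, and 27 were too seldom detected. One arm passed, miR-876-5p, which is 4.35% of those tested against 4.97% of all 181 assays. At an unadjusted p under 0.05 there were 3 arms (13% against 19.3% of all assays), namely miR-876-5p, miR-330-3p and miR-331-3p. In the same 3 the groups did not overlap, again 13% against 19.3%. The member arms were therefore called no more often than the card as a whole. The median difference of the 23 was 0.30 on the log2 scale against 0.06 for all 181 assays, and on raw Ct it was 0.04 against -0.25.

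MiR-876-5p was higher in L1Mic-R2. The L1-R2 lines had a raw Ct of 35.83, 37.24 and 36.69 for it, and the L1Mic-R2 lines one of 34.42, 34.53, 34.50 and 34.73. Every L1Mic-R2 line was thus more than 1 cycle earlier than every L1-R2 line. The difference was 3.21 on the log2 scale after normalization (standard error 0.57, 95% interval 1.81 to 4.60, limma adjusted p = 0.0392) and 2.04 on raw Ct (limma adjusted p = 0.0404). Quantile normalization moved single cards by -0.88 to 1.61 cycles, L1-R2 line 4T from 37.24 to 38.85 and L1Mic-R2 line 8T from 34.73 to 33.85. The partner miR-876-3p was Undetermined in 6 lines and was read at 37.87 in L1Mic-R2 line 8T, so that it could not be compared.

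The call for miR-876-5p held without L1-R2 line 4T (2.59, limma adjusted p = 0.0379) and was lost without any other single line. It was also lost with Ct minus U6 (adjusted p = 0.061), with Ct minus the mean of RNU44 and RNU48 (0.11), with no detection filter (0.111), and with the two-tailed test named in the methods (0.0729). With a replicate block the limma adjusted p was 0.431 by the line numbers of the labels and 0.255 by those of the file names. The difference was 3.72 and the limma adjusted p 0.0553 without L1-R2 line 3T, and 3.39 and 0.11 without L1-R2 line 8T. Without L1Mic-R2 line 2T, 3T, 7T or 8T the differences were 3.08, 3.22, 3.36 and 3.01, with limma adjusted p values of 0.118, 0.0837, 0.0553 and 0.0937. With Ct limited to 35 the difference fell to 0.77 (adjusted p = 0.0593), where all 3 L1-R2 lines lie at the limit. The L1-R2 cards are numbered 1 to 3 and the L1Mic-R2 cards 4 to 7, so that card order and group cannot be told apart. In such cultures fewer cells of a type and less RNA per cell cannot be told apart either. Among marker lists, the summed level (log2 of the summed 2 to the power of 40 minus Ct) was 20.91 to 21.69 in L1-R2 and 19.91 to 20.68 in L1Mic-R2 for the 4 melanocytic markers. It was 7.18 to 10.29 and 5.28 to 8.15 for 6 epithelial ones, of which 4 were detected in any line and miR-205 was Undetermined in all. For 6 markers of blood and endothelium, of which 5 were detected in any line and miR-451 was Undetermined in all, it was 6.71 to 7.88 and 7.73 to 11.29. The marker with the lowest Ct sets most of such a sum, and single markers ran otherwise. In the melanocytic list that marker is miR-146a, while miR-211 was Undetermined in L1Mic-R2 lines 2T and 8T. In the list of blood and endothelium, miR-126 had the lowest Ct in each L1Mic-R2 line, whereas miR-150 had a Ct of 34.91, 34.93 and 33.09 in L1-R2 and 35.54, 40, 40 and 37.46 in L1Mic-R2, and miR-142-3p was read in L1-R2 lines 3T and 4T only. The part of these cell types in the difference of miR-876-5p was not tested.

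**Figure D3:**
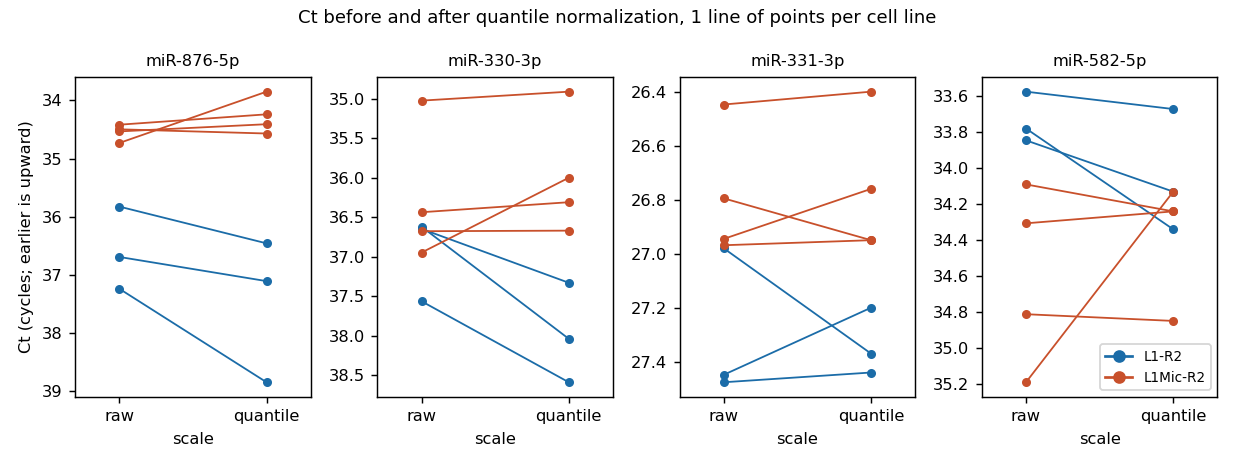
Ct (cycles, earlier upward, with a scale of its own in each panel) of 4 arms before (raw) and after quantile normalization, each line of points being 1 cell line, with L1-R2 in blue and L1Mic-R2 in orange. MiR-876-5p and miR-331-3p keep the groups apart on both scales, miR-330-3p only after normalization and miR-582-5p only before it.

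MiR-330-3p and miR-331-3p did not pass after adjustment. The raw Ct of miR-330-3p was 36.65, 36.62 and 37.56 in L1-R2 and 36.44, 36.68, 35.02 and 36.95 in L1Mic-R2, and the groups overlapped. After normalization they no longer did, and the difference was 2.01 (standard error 0.50, limma adjusted p = 0.0819) against 0.67 on raw Ct (limma adjusted p = 0.534). Over the 135 assays detected in all lines the adjusted p of miR-330-3p was 0.0464. For this arm the normalization moved single cards by -0.95 to 1.42 cycles, more than the raw difference between the groups.

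For miR-331-3p, an earlier arm, the raw Ct was 27.45, 26.98 and 27.48 in L1-R2 and 26.80, 26.45, 26.97 and 26.95 in L1Mic-R2. The groups did not overlap, with their closest lines at 26.98 and 26.97. The difference was 0.57 (standard error 0.19, limma adjusted p = 0.162) and 0.51 on raw Ct. Its partner miR-331-5p had a difference of 1.90 in the same direction, but with a standard error of 0.86 (limma adjusted p = 0.267) and 3 Undetermined lines.

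MiR-582-5p was the reverse case, with groups apart on raw Ct and overlapping after normalization. The raw difference was -0.87 (limma unadjusted p = 0.0318, adjusted p = 0.192), that is, less RNA in L1Mic-R2. After normalization it was -0.32 (standard error 0.26, limma adjusted p = 0.566). Of the other arms with an Undetermined partner, miR-296-5p had a difference of 0.67 after normalization (standard error 0.29, limma adjusted p = 0.254) and 0.03 on raw Ct. That of miR-342-3p was 0.34 (standard error 0.67) and that of miR-576-3p 0.90 (standard error 0.75).

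No arm of the 6 hairpins detected on both arms passed the test. The differences of the 12 arms ran from -0.57 for miR-455-5p to 0.91 for miR-455-3p, and the smallest adjusted p among them was 0.474 (limma). The interval of miR-455-3p, from -1.29 to 3.10, leaves room for a difference in either direction. The arms of miR-28 were at -0.11 (3p, 95% interval -0.52 to 0.30) and 0.06 (5p, -0.33 to 0.46).

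**Figure D4:**
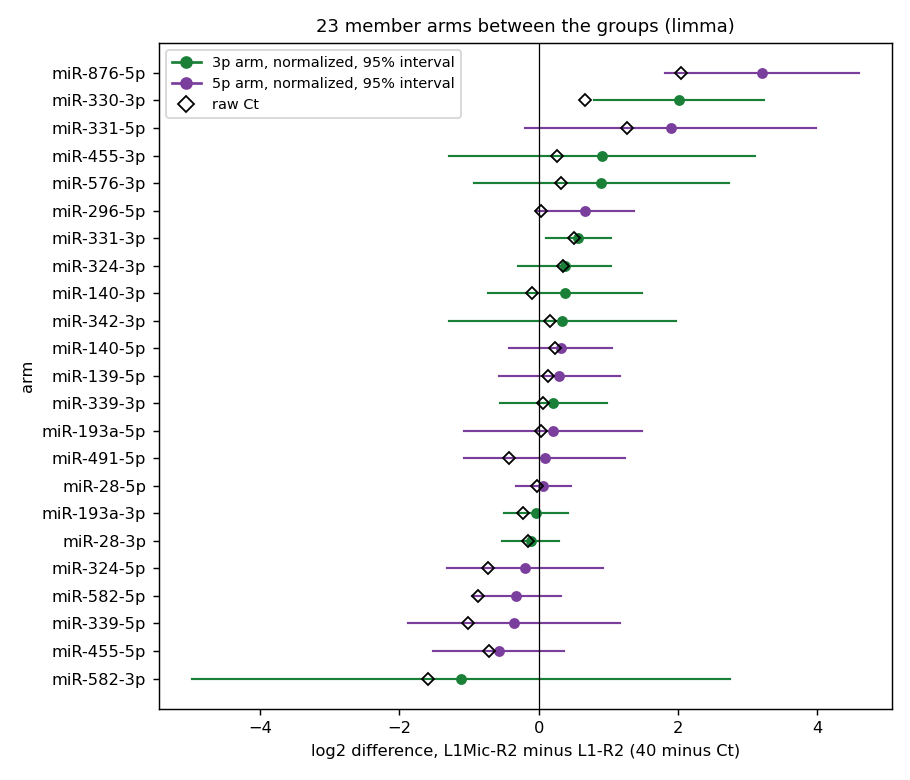
Difference in level of the 23 member arms tested (log2, 40 minus Ct, L1Mic-R2 minus L1-R2) after quantile normalization, with 95% intervals from limma, in green for 3p and purple for 5p arms. Open diamonds are the same difference on raw Ct. MiR-876-5p lies at 3.21 and is the only arm with an adjusted p under 0.05, and the late arms miR-330-3p and miR-876-5p move most between the scales.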

How the data were processed

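The authors deposited raw Ct values per well, a log2 scale in cycles, from TaqMan Human MicroRNA Array A cards, 1 per line. According to the methods, data were imported with SDS RQ Manager at a threshold of 0.3. The labels also mention SYBR and the mammary fat pad, and the description of the methods was used. Samples were grouped and numbered by their labels (file names exchange L1-R2 lines 3T and 4T).

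The hairpins, gene lists and tests were chosen with earlier results of these data known. Arm differences were taken on raw Ct and fitted with limma 3.58.1 (lmFit and eBayes, R 4.3.3) over 11 hairpins. Single arms were fitted on 40 minus Ct, quantile normalized over 381 assays, for 181 assays below Ct 38 in at least 3 lines, with Benjamini-Hochberg adjustment. The fits were tested on simulated data. Every hairpin is named. Values per line were given for hairpins with an adjusted p under 0.05, those detected on both arms in all lines, those with one arm in all lines and the other in none, and those whose arms change order. The line values of miR-331 and miR-582 were added after they were seen. Alternatives covered scaling, filters, Ct limits, the fit, a replicate block, and leaving out single lines. Scaling to a control RNA used a single well of that RNA per card. Arms without a RefSeq entry of the same name are named only. Intervals rest on 3 and 4 cards.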

Additional observations from a re-analysis of the deposited data

Results flagged for a closer look

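Each value within the L1Mic-R2 group was checked for a line far from the other 3, as the gap to the nearest line divided by the range of the group, and compared with the 95% critical value of Dixon's test for 4 lines. Of 28 measures 3 exceeded it, where 1.4 would do so by chance at 1 in 20. For the raw Ct of miR-339-5p the ratio was 0.861, with line 8T at 35.62 against 33.59 to 33.87. For the raw Ct of miR-455-5p it was 0.837, with line 7T at 32.58 against 31.10 to 31.34. For the number of detected arms it was 1, with 22 in line 7T against 24 in each of the others, a gap of whole arms among tied counts.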

How the results depend on the processing

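The count of single arms at an adjusted p under 0.05, 1 in the report, was 0 with U6, with the mean of RNU44 and RNU48, with no detection filter, with Ct limited to 35, with the two-tailed Student test, and with the replicate block by the line numbers of the labels or of the file names. It was 2 over assays below 38 in all 7 lines, and 0 to 1 when single lines were left out, with 1 to 5 arms at an unadjusted p under 0.05 (limma or the Student test). MiR-876-5p stayed positive throughout, from 0.77 to 3.85. No arm difference passed under any alternative. The earlier arm was the same in 5 of 6 hairpins when both arms had to be detected. Without single lines it was the same in 14 or 15 of 15, of which 5 had a partner Undetermined in every line. The difference in detected arms ran from -1 to 1 without single lines. Arm differences that changed sign were miR-28 (-0.05) and miR-455 (0.11) under the replicate block by file names, and miR-140 (-0.06) after quantile normalization. Without single lines they ran from -0.07 to 0.24 for miR-28, -0.01 to 0.57 for miR-140 and -0.0028 to 0.69 for miR-193a. MiR-582-5p was 0.05 under the replicate block by the labels. The cause was not tested.

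Over all settings tried, 164 of 185 values for single arms and hairpins had the direction of the report and lay on its side of the threshold. Most of these belong to arms and hairpins not called in the report, so that the count says little about the call. The 13 values that lost a call all belong to miR-876-5p, the only arm called. It kept its call on raw Ct, scaled to the mean of the detected microRNAs, and over assays detected in all lines. The call was also kept by eBayes with trend and robust, and without L1-R2 line 4T. Of 51 summary values, 34 were labelled the same. For counts of hairpins or arms this means a count equal or close to that of the report. For the difference in detected arms it means the same direction and side of the threshold. Line numbers 3T and 8T occur in both groups but do not pair the lines. The deviations of same-numbered lines correlated at -0.04 and -0.20 by the labels and at 0.02 and -0.20 by the file names, and the block leaves 1 residual degree of freedom. Late Ct limits the comparison, since 3 of the 21 arms detected in all lines had a mean Ct of 35 or more.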
